A study of Mus musculus with 6 samples.

Results

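The genes described here encode splicing factors and heterogeneous nuclear ribonucleoproteins (hnRNPs), the RNA-binding proteins that carry out and steer the removal of introns. Members were every gene whose symbol begins with Srsf and a digit, Hnrnp, Sf3a, Sf3b, Snrp, Lsm and a digit, Prpf, U2af, Ptbp or Rbm and a digit, or is one of the 4 kinase genes Clk1 to Clk4. The rule matched 138 of 55401 listed genes, and 8 pseudogenes marked by the ending -ps were left out, which left 130 members in 10 classes. By gene type, 127 members are protein-coding, 2 are antisense genes (Rbm3os and Rbm46os) and 1, Snrpert, is a processed pseudogene. A filter on low counts kept 117 of them for testing, and the other 13 are described by their counts alone.

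The libraries came from germinal centre B cells sorted from spleens of wild-type (WT) C57BL/6 mice immunised with sheep red blood cells (SRBC) into the peritoneal cavity, given the same antigen again on day 5 and killed on day 12. One subset is labelled DP and is set here against the other, labelled DN, with 3 libraries each, the same strain, genotype, antigen and batch label in all 6, and no allele or further agent in either. The labels do not say which markers DP and DN stand for, nor the age of the mice. The design text names 3 mice, each giving both subsets, yet no title or other label links a library with an animal, so that p-values measure the variation among these 6 libraries, some or all of it possibly technical.

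Introns are removed by the spliceosome, a machine assembled on each transcript from small nuclear RNAs packed with proteins into particles (snRNPs) named U1, U2, U4, U5 and U6. SR proteins bind exons and recruit these particles, hnRNPs coat the transcript and often oppose that recruitment, and the CLK kinases set the phosphorylation of SR proteins. B cells depend on regulated splicing, among other things to make the membrane and secreted forms of immunoglobulin, and in mice Ptbp1 is known to be needed for germinal centre B cells.

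Polyadenylated RNA was counted per gene. Gene counts ranged from 17509384 to 20538024 per library in DP and from 8904415 to 11897360 in DN. Levels below are CPM, counts scaled to 1000000 counts per library with TMM-adjusted library sizes, a step that corrects for differences in RNA composition. Here 3 counts correspond to 0.155 to 0.183 CPM in DP libraries and 0.236 to 0.315 CPM in DN libraries, which covers counting error only. Changes are log2 fold changes of DP over DN ± standard error from edgeR, and a gene was called at a Benjamini-Hochberg adjusted p under 0.05 over all 11296 tested genes. Of 10 germinal centre B cell markers all were tested, 8 were lower and 1 higher in DP, and their summed level was 1172 to 1198 CPM in DP and 2551 to 2604 CPM in DN. Summed erythroid markers reached 16.1 to 18.5 CPM in DP and 63.5 to 73.7 CPM in DN, with 7 of 7 tested markers lower in DP, and summed macrophage and monocyte markers reached 13.2 to 15.8 CPM in DP and 28.02 to 30.66 CPM in DN, with 7 lower and 1 higher of 8 tested. Naive B cell markers summed to 211 to 222 CPM in DP and 361 to 379 CPM in DN, plasma cell markers to 365 to 376 CPM in DP and 400 to 410 CPM in DN, and T cell markers to 58.0 to 60.3 CPM in DP and 50.2 to 58.7 CPM in DN, nearly all of it from Lck. Of 5 tested plasma cell markers, 4 were higher in DP (Irf4 by 2.54, Sdc1 by 1.77, Prdm1 by 1.47 and Xbp1 by 0.31 on the log2 scale), and Jchain was lower (-0.84). Of 5 tested naive B cell markers, 4 were lower and 1 higher in DP. Neutrophil markers summed to at most 1.57 CPM, natural killer cell markers to at most 0.314 CPM and follicular dendritic cell markers to at most 1.57 CPM in any library, and 1 marker of the neutrophil list and 1 of the natural killer list were at 0 throughout. The part of these cells in the results below was not tested, and in bulk libraries fewer cells of a type cannot be told apart from less RNA per cell.

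Most of the splicing module was higher in DP, by modest factors, while a minority was lower. Of 117 tested members, 101 were called in either direction, against a background of 75.9% of all tested genes. Of the 117, 80 (68.4%) were higher in DP, against a background of 38.3% of all tested genes, and 21 (17.9%) were lower, against 37.6%. The other 16 did not pass the test. The median member differed by 0.32 on the log2 scale, with quartiles of 0.04 and 0.69, while the median of all tested genes was 0.0061. Changes of at least 2-fold were called higher for 13 members (11.1%), a share near the background of 12.3%, and lower for 2 members (1.71%), against 12.8%. The libraries of DP and DN did not overlap in 100 of 117 tested members (85.5%), against 77% of all tested genes. All members together took 6.06% ± 0.08 of gene counts in DP and 5.13% ± 0.08 in DN (SD, n = 3 each), and on the CPM scale they summed to 64990 ± 1246 in DP and 48009 ± 794 in DN, a ratio of 1.35. When libraries were scaled by their totals alone, which moved the median of all tested genes to -0.19, 61 members were higher and 32 lower, with 17 of the 101 calls lost and 2 turned in direction. Over all tested genes, 29.1% were higher and 47.4% lower under that scaling. Among the 101 called members, 12 changed sign, including the 2 called in the other direction.

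**Figure D1:**
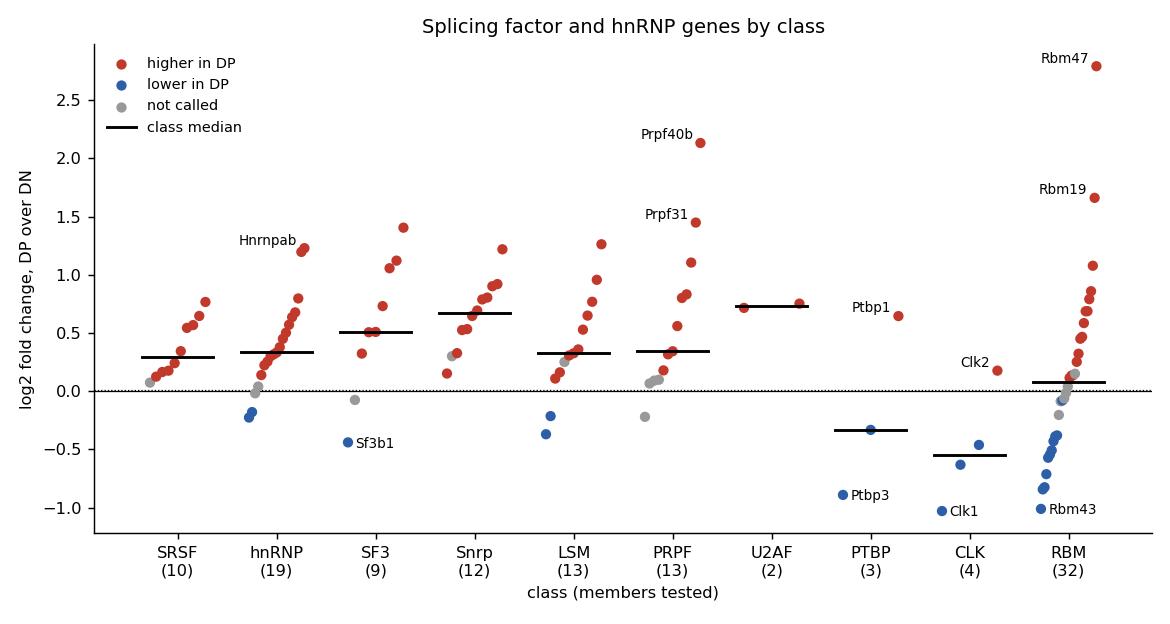
Log2 fold changes of DP over DN for the 117 tested members, by class, with the number tested under each class name. Each point is a gene coloured by its edgeR call, and black lines are class medians. Points of the Snrp, SF3 and U2AF classes lie mostly above 0.5, while the CLK median lies at -0.55. Under scaling by library totals alone the median of all genes moves to -0.19 and points near 0 turn sign.

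The direction depended on the class. The Snrp class, which holds proteins shared by several snRNPs or specific to U1 and U2, had 11 of 12 tested genes higher and 0 lower, with a median of 0.67. The gene that was not called was the pseudogene Snrpert. SF3 subunits had 7 of 9 higher and 1 lower with a median of 0.51, and both tested U2AF genes were higher with a median of 0.73. The SRSF class had 9 of 10 higher and 0 lower (median 0.29), but 5 higher and 1 lower under library totals alone. Of the hnRNP genes, 15 of 19 were higher and 2 lower (median 0.33), and 12 higher and 4 lower under library totals alone. LSM genes divided into 10 higher and 2 lower of 13 (median 0.33), and 6 higher and 3 lower under library totals alone. PRPF genes had 9 of 13 higher and 0 lower (median 0.34), and 8 higher and 2 lower under library totals alone. The RBM class was split, with 15 of 32 higher (46.9%), 11 lower (34.4%) and a median of 0.08. These shares lie near the 38.3% and 37.6% over all tested genes. Under library totals alone 10 were higher and 15 lower, where all tested genes had 29.1% higher and 47.4% lower. PTBP genes had 1 higher and 2 lower (median -0.33), and the CLK kinases 1 higher and 3 lower (median -0.55), the one higher CLK call being absent under library totals alone.

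Summed over a class, the U2AF genes reached 1237 ± 26.8 CPM in DP and 741 ± 10.1 CPM in DN, and the Snrp genes 2614 ± 43.3 CPM in DP and 1567 ± 40.3 CPM in DN, a ratio of 1.67 in both classes. The hnRNP genes held most of the module's counts, with 39518 ± 968 CPM in DP and 27578 ± 532 CPM in DN, a ratio of 1.43. PRPF, SF3, SRSF and LSM sums had ratios of 1.30, 1.27, 1.21 and 1.17. RBM and PTBP sums had ratios of 1.14 and 1.07 on the CPM scale. As a share of gene counts, RBM genes took 0.591% ± 0.0102 in DP and 0.593% ± 0.0094 in DN, with overlapping libraries. PTBP genes took slightly less in DP, at 0.0327% ± 0.00076 against 0.0350% ± 0.00125 in DN. The CLK sum was well below its DN level, at 439 ± 12.8 CPM in DP and 676 ± 42.2 CPM in DN, a ratio of 0.649.

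The 250 bases before the annotated start are shown for 6 of the members described below, chosen with their motif matches known, and each holds at least 1 match: 2 hnRNP genes and a tri-snRNP gene that rose, the regulator Ptbp1, the nucleolar gene Rbm19, and the kinase Clk4, which fell. Sequences and positions are from RefSeq (GRCm38.p6), read 5′ to 3′ along the gene's strand, with capitals marking matches to 4 motifs searched on both strands: the CCAAT box (CCAAT, or ATTGG on the other strand), the E-box (CACGTG), an ETS core (CCGGAAG, or CTTCCGG on the other strand) and the CRE (TGACGTCA).
Hnrnpa1 chr15:103240147-103240396 strand +: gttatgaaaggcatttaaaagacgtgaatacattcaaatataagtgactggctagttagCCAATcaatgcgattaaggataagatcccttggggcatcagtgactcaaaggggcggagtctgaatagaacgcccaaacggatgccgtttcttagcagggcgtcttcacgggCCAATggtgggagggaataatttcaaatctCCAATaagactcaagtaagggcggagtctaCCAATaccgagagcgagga
Hnrnpab chr11:51606882-51607131 strand -: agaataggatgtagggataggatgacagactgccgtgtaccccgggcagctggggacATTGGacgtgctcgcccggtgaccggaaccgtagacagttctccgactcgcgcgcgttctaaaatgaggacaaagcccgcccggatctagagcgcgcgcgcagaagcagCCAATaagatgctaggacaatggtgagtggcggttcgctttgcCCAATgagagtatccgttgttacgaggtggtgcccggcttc
Prpf31 chr7:3629735-3629984 strand +: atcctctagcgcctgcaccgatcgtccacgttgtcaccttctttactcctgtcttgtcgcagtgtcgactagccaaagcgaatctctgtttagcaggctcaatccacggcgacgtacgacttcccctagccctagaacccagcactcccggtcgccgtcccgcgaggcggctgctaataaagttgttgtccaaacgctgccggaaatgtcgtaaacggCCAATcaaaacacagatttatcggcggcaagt
Ptbp1 chr10:79854182-79854431 strand +: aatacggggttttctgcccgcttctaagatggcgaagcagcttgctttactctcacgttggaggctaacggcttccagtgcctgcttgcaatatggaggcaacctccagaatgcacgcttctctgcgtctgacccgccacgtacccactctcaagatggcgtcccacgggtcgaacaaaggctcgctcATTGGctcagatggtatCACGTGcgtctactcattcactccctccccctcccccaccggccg
Rbm19 chr5:120116263-120116512 strand +: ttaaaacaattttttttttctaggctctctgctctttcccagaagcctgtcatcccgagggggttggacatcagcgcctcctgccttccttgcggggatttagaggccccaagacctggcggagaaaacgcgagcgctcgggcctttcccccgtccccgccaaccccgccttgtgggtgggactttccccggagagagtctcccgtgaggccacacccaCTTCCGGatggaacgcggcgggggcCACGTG
Clk4 chr11:51262864-51263113 strand +: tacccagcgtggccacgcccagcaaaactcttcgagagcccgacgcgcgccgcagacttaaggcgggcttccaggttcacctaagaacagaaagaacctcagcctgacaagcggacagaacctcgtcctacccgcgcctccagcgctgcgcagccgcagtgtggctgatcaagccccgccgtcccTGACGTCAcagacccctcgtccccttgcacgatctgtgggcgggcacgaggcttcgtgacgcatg

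The Hnrnpa1 promoter held 4 CCAAT boxes, the first bases of which lay 191, 79, 49 and 19 bases before the start, and the Hnrnpab promoter held 3, at 193, 84 and 41 bases. Prpf31 had a single CCAAT box 32 bases before its start. Ptbp1 combined a CCAAT box at 62 bases with an E-box at 45 bases, Rbm19 an ETS core at 31 bases with an E-box at 6 bases, and Clk4 had a CRE at 65 bases. For Clk4 the RefSeq start differs from that of GENCODE M21, where the gene begins at chr11:51261730. The Clk4 sequence shown therefore lies inside the gene by that annotation. Promoters were matched for 96 of the 117 tested members and for 8436 tested genes. The CCAAT box was present in 33 of 68 promoters of higher members (48.5%), 7 of 15 of lower members (46.7%) and 41.4% of all tested genes' promoters. The E-box was present in 9 of 68 promoters of higher members (13.2%), 1 of 15 of lower members and 10.4% of all. The ETS core was present in 17 of 68 promoters of higher members (25.0%), 3 of 15 of lower members and 17.8% of all, and the CRE in 3 of 68, in 1 of 15 and in 3.21% of all. A match is a run of letters and not a shown binding site. No matches overlapped each other in the 6 sequences.

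The Sm ring surrounds the small nuclear RNAs of U1, U2, U4 and U5. Its 7 genes were all higher in DP, with a median of 0.65. Snrpd3, a ring subunit, reached 541, 526 and 506 CPM in the DP libraries, against 224, 216 and 236 CPM in the DN libraries. All DP libraries lay above all DN libraries, and the change of 1.22 ± 0.04 was the largest of the ring (edgeR adjusted p = 1.63e-36). Snrpd2, which pairs with Snrpd1, had 121, 110.4 and 117 CPM in the DP libraries, against 64.4, 61.3 and 60.7 CPM in the DN libraries. Snrpb, which pairs with Snrpd3, had 177, 173 and 173 CPM in the DP libraries, against 112, 104 and 118 CPM in the DN libraries. Snrpd1 had 438, 434 and 423 CPM in the DP libraries, against 299.8, 293 and 303 CPM in the DN libraries. The groups were apart for these 3 ring genes too, by 0.90 ± 0.05, 0.65 ± 0.04 and 0.53 ± 0.04 on the log2 scale in the order given.

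Among the remaining ring genes, Snrpf had 589.8, 629 and 596 CPM in the DP libraries, against 393, 358 and 371 CPM in the DN libraries. This is a clear gap of 0.69 ± 0.04, although 85.4% of the Snrpf exon bases are overlapped on the opposite strand by Ccdc38, so that reads of the pair can be told apart only if counting used strand. Snrpe had 97.5, 94.3 and 99.96 CPM in the DP libraries, against 79.5, 78.003 and 74.7 CPM in the DN libraries. Snrpg, a low-level gene, had 11.04, 13.001 and 10.9 CPM in the DP libraries, against 7.70, 7.66 and 9.13 CPM in the DN libraries. Neither overlapped between groups, and the changes were 0.33 ± 0.05 for Snrpe and 0.52 ± 0.12 for Snrpg (edgeR adjusted p = 1.62e-08 and 1.11e-04). As a limit, 11.3% of the 50-base words of Snrpg transcripts also occur in transcripts of other genes.

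The 4 Snrp genes specific to U1 or U2 were also higher. Snrpa, the U1 protein that also controls polyadenylation of its own transcript, had 282, 282 and 265 CPM in the DP libraries, against 147, 138 and 153 CPM in the DN libraries. DP libraries were all above DN libraries, by 0.92 ± 0.04 (edgeR adjusted p = 6.17e-29). The other U1 gene, Snrpc, rose by 0.79 ± 0.05, and of the U2 pair Snrpa1 rose by 0.80 ± 0.05 while Snrpb2 rose by only 0.15 ± 0.04, a change that turned to -0.045 under library totals alone. The pseudogene Snrpert, whose transcript shares 55.7% of its 50-base words with other genes, most of all Snrpe, differed by 0.30 ± 0.15 and did not pass the test. Snrpn, the imprinted and mainly neuronal relative of Snrpb, was below the filter, with 8, 12 and 10 counts in the DP libraries, against 1, 0 and 3 counts in the DN libraries. Other genes, most of all Gm38393, overlap 34.1% of its exon bases, so its counts may be too low.

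U2AF reads the pyrimidine tract and the AG at the end of an intron, and both of its subunits rose in parallel. U2af2, the large subunit that binds the tract, had 858, 877 and 836 CPM in the DP libraries, against 509, 502 and 516 CPM in the DN libraries. U2af1, the small subunit that binds the AG, had 389.6, 381 and 371 CPM in the DP libraries, against 234, 228 and 234 CPM in the DN libraries. All DP libraries exceeded all DN libraries for both, with changes of 0.75 ± 0.04 and 0.72 ± 0.04 (edgeR adjusted p = 5.59e-28 for U2af2 and 1.08e-25 for U2af1). The third gene, U2af1l4, had 0 counts in every library. Other genes, most of all Gm49396, overlap 66.1% of its exon bases, so the 0 counts need not mean that it was silent.

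SF3a and SF3b together anchor the U2 particle at the branch point. The 3 SF3a genes were higher, and Sf3a2 led them with 144, 143 and 139 CPM in the DP libraries, against 62.02, 67.7 and 76.6 CPM in the DN libraries. The groups were far apart, with a change of 1.06 ± 0.05 (edgeR adjusted p = 1.20e-25), beside 0.73 ± 0.04 for Sf3a1 and 0.51 ± 0.04 for Sf3a3. SF3b was not uniform, with 4 of 6 genes higher and 1 lower. Sf3b3, a large scaffold subunit, had 452, 449.7 and 441 CPM in the DP libraries, against 202, 211 and 205 CPM in the DN libraries. Sf3b4, which touches the transcript near the branch point, had 50.5, 52.4 and 52.4 CPM in the DP libraries, against 18.7, 18.2 and 21.96 CPM in the DN libraries. DP exceeded DN in every library for this pair, by 1.12 ± 0.04 and 1.40 ± 0.07, with the limit that 43.6% of the 50-base words of Sf3b4 also occur in the copy Gm7935.

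Sf3b1, the subunit that clamps the branch point and is often mutated in blood cancers, went the other way. Sf3b1 (chr1:54985169-55027481, minus strand, mm10) had 494, 499.9 and 515 CPM in the DP libraries, against 650.1, 706 and 692 CPM in the DN libraries. All DP libraries were below all DN libraries, a change of -0.44 ± 0.04 (edgeR adjusted p = 5.90e-17). Sf3b2 rose by 0.32 ± 0.03 and Sf3b5 by 0.51 ± 0.11. Sf3b6, the subunit at the branch-point adenosine, differed by -0.076 ± 0.05 and did not pass the test (edgeR adjusted p = 0.124), though it was called lower without DN replicate 1, which gives 2 lower SF3 genes in place of 1.

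**Figure D2:**
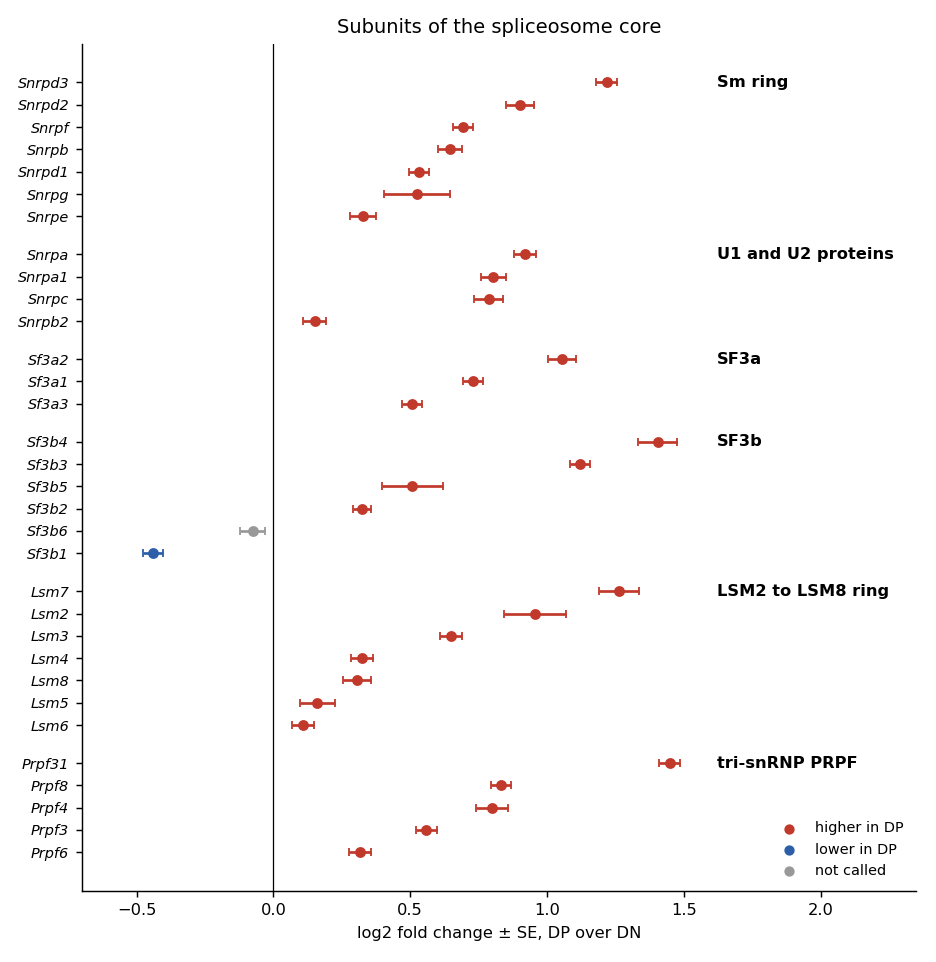
Log2 fold change of DP over DN with its standard error for each member of the core particles, grouped by particle and sorted within it. Red points were called higher in DP, blue lower and grey not called. All 7 Sm ring genes, 3 SF3a genes and 5 tri-snRNP PRPF genes lie right of 0, Sf3b1 lies left of it, and Lsm5, Lsm6 and Snrpb2 turn below 0 when libraries are scaled by their totals alone.

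LSM proteins form a second ring, with LSM2 to LSM8 on U6 RNA in the nucleus and LSM1 in place of LSM8 on decaying mRNA in the cytoplasm. All 7 genes of the nuclear ring were called higher (median 0.33), but 3 of them with the smallest changes lost that under library totals alone, Lsm5 and Lsm8 as not called and Lsm6 as called lower. The calls of Lsm5 and Lsm6 were also lost with upper-quartile factors, with a minimum count of 50 and without DP replicate 1. That of Lsm5 was lost with DESeq2 (adjusted p = 0.0782) and without DN replicate 3 too, and that of Lsm6 without DN replicate 2. Lsm7 had 53.1, 52.8 and 51.3 CPM in the DP libraries, against 22.7, 18.1 and 24.5 CPM in the DN libraries. Lsm2 had 15.7, 14.6 and 14.4 CPM in the DP libraries, against 7.47, 7.35 and 8.21 CPM in the DN libraries. Groups did not overlap for either, and these were the largest changes of the ring, 1.26 ± 0.07 for Lsm7 and 0.96 ± 0.11 for Lsm2 (edgeR adjusted p = 2.18e-23 and 4.78e-11). Lsm3 rose by 0.65 ± 0.04, Lsm4 by 0.33 ± 0.04 and Lsm8 by 0.31 ± 0.05, and the cytoplasmic Lsm1 rose by 0.36 ± 0.07. Of the U7 pair, which serves the ends of histone mRNAs, Lsm11 rose by 0.53 ± 0.16 and Lsm10 differed by 0.25 ± 0.38 without passing the test. The Lsm11 call was lost under library totals alone (0.33, edgeR adjusted p = 0.0587).

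Outside the rings the LSM family diverged. Lsm12, an RNA-binding protein that is part of neither ring, had 43.97, 47.8 and 47.96 CPM in the DP libraries, against 26.6, 27.7 and 28.02 CPM in the DN libraries. Lsm14a, a processing-body protein that represses translation, had 238, 239 and 237 CPM in the DP libraries, against 299.7, 308 and 316 CPM in the DN libraries. Lsm14b, its relative known from oocytes, had 37.4, 37.8 and 40.02 CPM in the DP libraries, against 43.6, 42.8 and 47.3 CPM in the DN libraries. DP was above DN throughout for Lsm12 (0.77 ± 0.07) and below it throughout for Lsm14a (-0.37 ± 0.04, edgeR adjusted p = 1.44e-13) and Lsm14b (-0.21 ± 0.06, edgeR adjusted p = 0.00186).

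The PRPF genes of the U4/U6.U5 tri-snRNP were all 5 higher, with a median of 0.80. Prpf31, the U4 protein whose human gene is mutated in retinitis pigmentosa and whose promoter is printed above, had 611, 579 and 585 CPM in the DP libraries, against 227, 219 and 204 CPM in the DN libraries. Prpf8, the protein at the catalytic centre, had 627, 654 and 635 CPM in the DP libraries, against 338, 370.4 and 369 CPM in the DN libraries. The lowest DP library was above the highest DN library in both, with changes of 1.45 ± 0.04 (edgeR adjusted p = 4.83e-40) and 0.83 ± 0.04 (edgeR adjusted p = 7.77e-29). Prpf4 rose by 0.80 ± 0.06, Prpf3 by 0.56 ± 0.04 and Prpf6 by 0.32 ± 0.04.

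Prpf19, the ubiquitin ligase that heads a complex needed for catalytic activation, had 175, 175 and 178 CPM in the DP libraries, against 81.1, 82.1 and 82.4 CPM in the DN libraries. DP libraries were all above DN libraries and close to each other, a change of 1.10 ± 0.04 (edgeR adjusted p = 1.50e-31). Prpf40b, a U1-associated protein at low level, had 4.45, 6.27 and 5.32 CPM in the DP libraries, against 1.10, 1.15 and 1.44 CPM in the DN libraries. The groups were apart by 2.13 ± 0.23, a value that rests on 75, 121 and 87 counts in the DP libraries, against 14, 11 and 14 counts in the DN libraries. Prpf38a, which joins before activation, rose by 0.34 ± 0.04. Prpf18, Prpf38b, the kinase gene Prpf4b and the U1-associated Prpf39 did not pass the test, with differences of 0.098, 0.090, 0.066 and -0.22. Prpf39 was called lower under 4 alternatives: without DN replicate 2 (-0.30), with a replicate block (-0.21), without a filter (-0.15) and under library totals alone (-0.42). Prpf38b and Prpf4b were called higher without a filter, with a replicate block, without DN replicate 1 and without DP replicate 2. Prpf18 was called higher without a filter, without DN replicate 2 and without DP replicate 2. Under library totals alone Prpf4b was called lower (-0.13).

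SR proteins bind exonic enhancers, and all 8 canonical SR genes were called higher, by a median of 0.44, although Srsf1, Srsf3 and Srsf4 lost that under library totals alone. Srsf2 (SC35), a speckle protein that is mutated in human myeloid disease, had 158, 166 and 159.8 CPM in the DP libraries, against 94.01, 97.3 and 93.7 CPM in the DN libraries. No library of one group reached the other, and the change of 0.77 ± 0.04 was the largest of the class (edgeR adjusted p = 7.35e-24). Srsf9 had 99.6, 110.3 and 113 CPM in the DP libraries, against 69.6, 67.8 and 68.97 CPM in the DN libraries. Srsf6 had 409, 409 and 414 CPM in the DP libraries, against 283, 266 and 282 CPM in the DN libraries. DP stood above DN in all libraries for both, by 0.65 ± 0.05 and 0.57 ± 0.04, and Srsf7 rose by a similar 0.54 ± 0.04.

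Changes were smaller for Srsf5, Srsf3 and Srsf1. Srsf5 had 772, 769 and 744 CPM in the DP libraries, against 646, 562 and 591 CPM in the DN libraries. Srsf3, the smallest SR protein and an adaptor for mRNA export, had 553, 565 and 580.3 CPM in the DP libraries, against 451, 506 and 483 CPM in the DN libraries. Srsf1, the first SR protein described, had 94.4, 96.03 and 101 CPM in the DP libraries, against 81.8, 94.6 and 83.95 CPM in the DN libraries. Srsf5 and Srsf3 kept the groups apart, by 0.34 ± 0.04 and 0.24 ± 0.04, while for Srsf1 the highest DN library exceeded the lowest DP library and the change of 0.16 ± 0.05 (edgeR adjusted p = 0.0024) turned to -0.032 under library totals alone. Srsf4 rose by 0.18 ± 0.04 and the atypical repressor Srsf10 by 0.12 ± 0.04, both turning below 0 under library totals alone. Srsf11 differed by 0.073 ± 0.04 and did not pass the test, and Srsf12 had 1 count in all libraries together.

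CLK kinases phosphorylate SR proteins in the nucleus, and 3 of the 4 CLK genes were lower in DP. Clk1 (chr1:58410189-58424066, minus strand, mm10) had 177, 166 and 165 CPM in the DP libraries, against 380.1, 330.4 and 325 CPM in the DN libraries. All DP libraries were far below all DN libraries, a change of -1.03 ± 0.05 (edgeR adjusted p = 4.42e-21), the largest fall of all members. Clk4, its closest relative, had 117, 106 and 109 CPM in the DP libraries, against 186, 163 and 162 CPM in the DN libraries. The groups did not overlap, DN replicate 1 being the highest for both kinases, and Clk4 changed by -0.63 ± 0.05 (edgeR adjusted p = 3.09e-17).

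Clk3 had 38.4, 40.9 and 40.3 CPM in the DP libraries, against 54.7, 52.6 and 57.5 CPM in the DN libraries. This was again a gap with all DP libraries lower, a change of -0.46 ± 0.06 (edgeR adjusted p = 4.06e-10). Clk2 had 122, 118 and 119.7 CPM in the DP libraries, against 104, 104 and 111 CPM in the DN libraries. Here DP libraries were slightly higher without overlap, by 0.18 ± 0.04 (edgeR adjusted p = 3.48e-04), and the value turned to -0.020 under library totals alone. Clk1 and Clk4 are known to keep part of their transcripts in the nucleus with introns retained, and gene counts resolve neither introns nor isoforms, so no splicing outcome was measured for these or any other members.

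**Figure D3:**
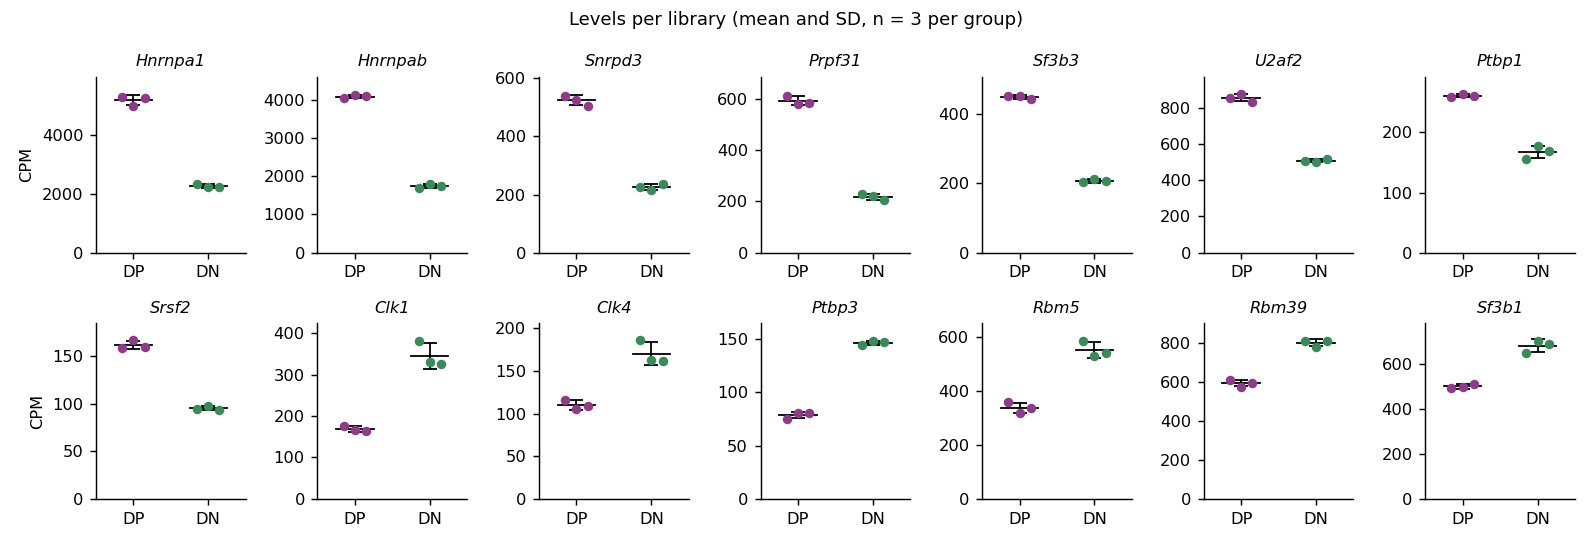
Levels of 14 members in CPM for each library, DP left of DN. Points are libraries, long lines are means and bars are SD (n = 3 per group), with axes starting at 0. DP lies above DN without overlap for the 8 genes from Hnrnpa1 to Srsf2 and below it without overlap for Clk1, Clk4, Ptbp3, Rbm5, Rbm39 and Sf3b1.

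The hnRNP genes held a large share of the module's counts. Hnrnpa1, the archetypal exon silencer, had 5319, 5019 and 5285 CPM in the DP libraries, against 2346, 2229 and 2244 CPM in the DN libraries. DP libraries were all far above DN libraries, a change of 1.20 ± 0.03 (edgeR adjusted p = 9.68e-39). Hnrnpab, a shuttling relative, had 4053, 4118 and 4092 CPM in the DP libraries, against 1694, 1806 and 1736 CPM in the DN libraries. Its groups were as far apart, with a change of 1.23 ± 0.03 (edgeR adjusted p = 1.53e-39). Both promoters printed above carry several CCAAT boxes. Copies of Hnrnpa1 hold 28.2% of its 50-base words, mostly in Gm10052, and 29.1% of Hnrnpab exon bases are overlapped on the opposite strand by Phykpl.

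Hnrnpc, which binds uridine tracts and shields introns from U2AF, had 1654, 1557 and 1580.3 CPM in the DP libraries, against 898, 921 and 941 CPM in the DN libraries. DP was above DN in all libraries, by 0.80 ± 0.03 (edgeR adjusted p = 2.15e-29). The nuclear-matrix protein gene Hnrnpu rose by 0.68 ± 0.03, Hnrnpm by 0.64 ± 0.03 and Hnrnpa0 by 0.57 ± 0.05. Hnrnpa2b1, a reader of the same motifs as Hnrnpa1, had 6572, 6221 and 6683 CPM in the DP libraries, against 5624, 5327 and 5388 CPM in the DN libraries. Hnrnpl, which binds CA repeats and represses variable exons of Cd45, had 225, 223 and 231 CPM in the DP libraries, against 183, 176 and 180.3 CPM in the DN libraries. The groups were apart for both but by less than for Hnrnpa1, at 0.25 ± 0.03 and 0.33 ± 0.04, and the Hnrnpa2b1 call was lost under library totals alone (0.057).

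The remaining hnRNP genes that rose did so by 0.14 (Hnrnpk) to 0.50 (Hnrnpd), among them Hnrnpdl at 0.45, Hnrnph1 at 0.38, Hnrnpr at 0.32, Hnrnpa3 at 0.30 and Hnrnph2 at 0.22. Under library totals alone Hnrnpk (-0.058) and Hnrnph2 (0.025) were no longer called. Hnrnpul1, a DNA damage and export factor, had 509, 524 and 502 CPM in the DP libraries, against 606, 576 and 613 CPM in the DN libraries. Hnrnph3, the short relative of Hnrnph1, had 209.8, 204 and 219.7 CPM in the DP libraries, against 249, 234 and 233 CPM in the DN libraries. These were the 2 lower hnRNP genes, with no overlap between groups, at -0.23 ± 0.04 and -0.18 ± 0.04 (edgeR adjusted p = 8.21e-08 and 4.96e-05). Hnrnpf and Hnrnpul2 did not pass the test (0.040 and -0.019). Hnrnpll, which drives plasma cell splicing of Cd45 and Ighm in mice, was below the filter, with 12, 17 and 10 counts in the DP libraries, against 4, 4 and 2 counts in the DN libraries.

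Per kb of exon, the order of the most abundant members differed between the subsets. In DP the order of mean CPM per kb was Hnrnpa1 (1652), Hnrnpab (1469), Hnrnpa3 (1144), Hnrnpa2b1 (986) and Snrpf (702). In DN it was Hnrnpa3 (929.9), Hnrnpa2b1 (827), Hnrnpa1 (721), Hnrnpab (627) and Snrpf (434). As a limit, an order between genes depends on how much of each can be counted. Other genes hold 28.2% of the 50-base words of Hnrnpa1, 27.1% of Hnrnpa3 and 21.3% of Snrpf, but 0.59% of Hnrnpa2b1 and 0.14% of Hnrnpab.

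PTBP proteins bind pyrimidine-rich RNA and silence exons, and the family split by paralog. Ptbp1, the widely expressed member, had 258, 264 and 261 CPM in the DP libraries, against 156, 177 and 169 CPM in the DN libraries. DP libraries were all above DN libraries, by 0.64 ± 0.04 (edgeR adjusted p = 9.46e-22). Ptbp3 (chr4:59471868-59549364, minus strand, mm10), the paralog first described in blood cells, had 75.4, 80.3 and 81.02 CPM in the DP libraries, against 144, 148 and 147 CPM in the DN libraries. It was lower in every DP library, a change of -0.89 ± 0.04 (edgeR adjusted p = 1.69e-26). Ptbp2, the neuronal paralog, which Ptbp1 represses, had 10.9, 9.997 and 10.8 CPM in the DP libraries, against 14.6, 13.6 and 11.2 CPM in the DN libraries. The DN libraries spread widely and the lowest nearly met the DP range, and the change of -0.33 ± 0.11 (edgeR adjusted p = 0.00582) was no longer called without DN replicate 1 (-0.23, edgeR adjusted p = 0.0906), which leaves Ptbp3 as the single lower PTBP gene.

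The RBM class is joined by a name and by RNA-recognition motifs and not by a role, and its largest rises were outside splicing in part. Rbm19, a nucleolar protein needed for ribosomal RNA processing, had 116, 122 and 123 CPM in the DP libraries, against 34.98, 42.7 and 37.5 CPM in the DN libraries. Rbm28, another nucleolar protein, had 418, 415 and 415 CPM in the DP libraries, against 224, 228 and 236 CPM in the DN libraries. Rbm8a (Y14), a core subunit of the exon junction complex that splicing leaves on mRNA, had 284, 262 and 264 CPM in the DP libraries, against 132, 127 and 125 CPM in the DN libraries. DP was above DN in all libraries for the 3 genes, by 1.66 ± 0.06 (edgeR adjusted p = 3.39e-35), 0.86 ± 0.04 (edgeR adjusted p = 1.27e-29) and 1.08 ± 0.04 (edgeR adjusted p = 3.93e-32) in that order.

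Further rises were 0.79 ± 0.06 for Rbm15b of the m6A writer complex, 0.69 ± 0.04 for Rbm27, 0.69 ± 0.05 for Rbm34, 0.58 ± 0.04 for Rbm17, which can replace U2AF2 at short tracts in human cells, and 0.45 ± 0.04 for the U1-associated Rbm25. Rbm10, a repressor of exon inclusion, had 267, 285 and 270.2 CPM in the DP libraries, against 193, 205 and 198 CPM in the DN libraries. Its DP libraries were all higher, by 0.47 ± 0.04, with the limit that 41.0% of its 50-base words occur in other genes. Rbm47, an RNA-editing cofactor, had the largest fitted change of all members (2.79 ± 0.49) from 20, 28 and 23 counts in the DP libraries, against 2, 1 and 3 counts in the DN libraries. Rbm14, Rbm38, Rbm22, Rbm26 and Rbm6 rose by 0.11 to 0.32, and Rbm22, Rbm26 and Rbm6 turned below 0 under library totals alone, Rbm6 as a call. Rbm14 and Rbm38 were no longer called there. The calls of Rbm14 and Rbm22 were also lost with DESeq2 (adjusted p = 0.111 and 0.0632) and with upper-quartile factors, and that of Rbm14 with a minimum count of 50. Leaving out single libraries ended the call for Rbm14 (0.22 without DN replicate 2 and 0.21 without DP replicate 2), for Rbm22 (0.098 without DN replicate 1 and 0.11 without DP replicate 2) and for Rbm26 (0.10 without DN replicate 3).

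Among the 11 lower RBM genes, Rbm5, the paralog of Rbm10 known as a tumour suppressor, had 359, 319.9 and 336 CPM in the DP libraries, against 588, 532 and 543 CPM in the DN libraries. Rbm39, a U2AF2 relative and the target of aryl sulfonamide degraders, had 609.8, 577 and 598 CPM in the DP libraries, against 813, 781 and 811 CPM in the DN libraries. All DP libraries were below all DN libraries for both, with changes of -0.71 ± 0.04 (edgeR adjusted p = 4.50e-22) and -0.43 ± 0.04 (edgeR adjusted p = 5.09e-17). Rbm43 had 14.4, 14.1 and 17.5 CPM in the DP libraries, against 28.5, 33.2 and 31.3 CPM in the DN libraries. Rbm41 had 16.4, 11.6 and 15.03 CPM in the DP libraries, against 26.3, 25.4 and 24.9 CPM in the DN libraries. Rbm12b2 had 7.30, 7.04 and 5.74 CPM in the DP libraries, against 11.9, 12.9 and 10.9 CPM in the DN libraries. These 3 low-level genes held the largest falls of the class without overlap, at -1.01 ± 0.09, -0.84 ± 0.09 and -0.83 ± 0.12. However, Rbm12b2 shares 55.1% of its 50-base words with its neighbour Rbm12b1, which fell by 0.51. Reads that match both genes equally may have been left uncounted.

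Rbm44, Rbm4b, Rbm18 and Rbm45 were lower as well, at -0.57, -0.55, -0.39 and -0.38. Rbm3, which is induced by mild cold, had 679, 680.5 and 693 CPM in the DP libraries, against 713, 755 and 702 CPM in the DN libraries. The groups were close, and its call at -0.080 ± 0.04 (edgeR adjusted p = 0.0358) was lost without DN replicate 2 (-0.042), without DP replicate 1 (-0.065), without DP replicate 2 (-0.069) and without DP replicate 3 (-0.080). Rbm4, Rbm7, Rbm12, Rbm15, Rbm33 and Rbm48 did not pass the test, with differences between -0.20 and 0.15. The 13 untested members include 9 of the RBM class, 6 of the 13 were at 0 in every library, and the highest mean was 0.735 CPM in DP for Hnrnpll. Low counts need not mean low expression for all of them. Other genes overlap 75.4% of the exon bases of Rbm42 and hold 100% of the 50-base words of Rbm31y.

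Within a library, ratios of paralogs and partners show how the balance of the module differed. The pairs were chosen after their values were seen, so the ratios, of counts per kb of exon, carry no test. The ratio of Ptbp1 to Ptbp3 was 5.41, 5.19 and 5.08 in the DP libraries, against 1.71, 1.89 and 1.81 in the DN libraries, means of 5.23 ± 0.166 in DP and 1.80 ± 0.0902 in DN (SD, n = 3 each). The ratio of Sf3b3 to Sf3b1 was 0.927 ± 0.0315 in DP and 0.314 ± 0.00832 in DN, and that of Clk2 to Clk1 was 1.09 ± 0.0290 in DP and 0.475 ± 0.0506 in DN. These ratios were 2.90, 2.95 and 2.29 times as high in DP as in DN, with no overlap.

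The ratio of Rbm10 to Rbm5 was 3.37 ± 0.308 in DP and 1.49 ± 0.123 in DN, and that of Hnrnpa1 to Hnrnpa2b1 was 1.68 ± 0.0209 in DP and 0.872 ± 0.00204 in DN. In both pairs the first gene gained on the second, by factors of 2.26 and 1.92. The U2AF heterodimer kept its balance more closely, with a ratio of U2af1 to U2af2 of 0.719, 0.688 and 0.704 in the DP libraries, against 0.728, 0.720 and 0.717 in the DN libraries, whose ranges overlap.

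**Figure D4:**
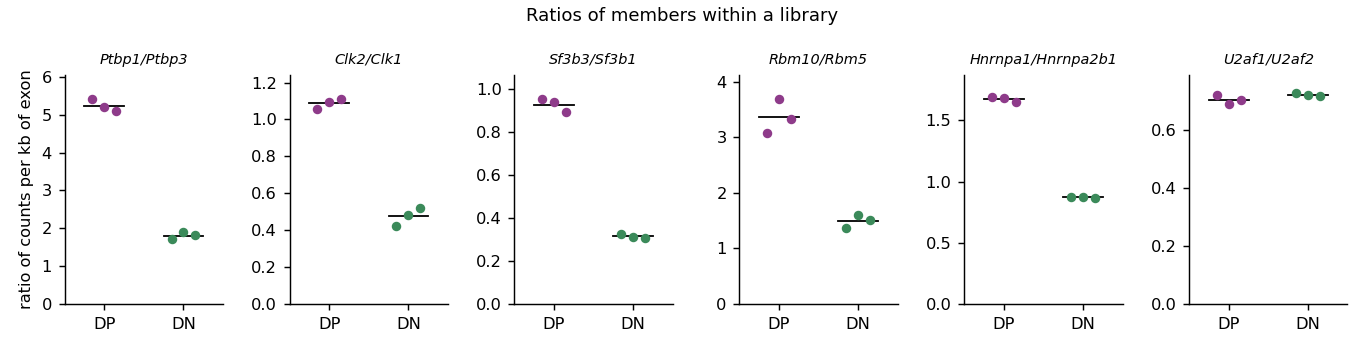
Ratios of counts per kb of exon between 6 pairs of members in each library, DP left of DN, with lines at the group means (n = 3 each) and axes starting at 0. Ratios such as Ptbp1 to Ptbp3 (mean 5.23 in DP and 1.80 in DN) separate the groups, while U2af1 to U2af2 lies near 0.7 in all 6 libraries. The pairs were chosen after their values were seen.

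Other genes of the pathway were described by 7 lists of genes outside the rule. Their counts stand beside shares over all tested genes of 38.3% higher and 37.6% lower. Under library totals alone those shares were 29.1% and 47.4%. Of 30 tested U1, U2, U5 and tri-snRNP proteins with other names, 26 were higher and 3 lower, with a median of 0.50. Among them Eftud2, the GTPase of U5, averaged 826 ± 4.65 CPM in DP and 345 ± 15.7 CPM in DN (1.26 ± 0.04), and Snrnp200, the U5 helicase that unwinds U4 from U6, averaged 1186 ± 11.5 CPM in DP and 654 ± 8.46 CPM in DN (0.86 ± 0.03). Snrnp70 of U1 rose by 0.79 ± 0.03.

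The list of snRNP assembly and import holds factors that load Sm rings onto small nuclear RNAs, and also import and Cajal body proteins. In this list, 19 of 20 tested genes were higher and 0 lower, with a median of 0.94 and 9 genes at least 2-fold higher. Gemin5, which recognises the small nuclear RNAs, averaged 142 ± 5.50 CPM in DP and 26.8 ± 2.22 CPM in DN (2.42 ± 0.06), and Prmt5, which methylates Sm proteins, averaged 179 ± 6.10 CPM in DP and 51.5 ± 1.93 CPM in DN (1.80 ± 0.05). Nolc1, a Cajal body and nucleolar protein, rose by 2.62 ± 0.04 and the import receptor Kpnb1 by 0.96 ± 0.03. The median of this list stood beside 0.65 for the Sm ring genes, and their difference was not tested.

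Of 18 tested SR-related proteins and regulators, 13 were higher and 3 lower (median 0.19), with Srrm1 at 0.73 ± 0.04, Ddx39b at 0.73 ± 0.04 and the SR kinase Srpk1 at 0.70 ± 0.04, while Scaf11 fell by 0.75 ± 0.03. Srpk1, which phosphorylates SR proteins in the cytoplasm, averaged 264 ± 8.45 CPM in DP and 163 ± 10.1 CPM in DN. It moved opposite to Clk1 but in the direction of Clk2. Its relative Srpk2 did not pass the test (-0.080, edgeR adjusted p = 0.119). Of 27 Prp19 complex, activation and catalytic step factors, 18 were higher and 5 lower (median 0.18), with Bud13 at 0.83 ± 0.06, Aqr at 0.81 ± 0.04, Dhx38 at 0.71 ± 0.04 and Cactin at 0.60 ± 0.04. The exon junction complex and mRNA export list had 13 higher and 5 lower of 20 (median 0.33), with Magohb, a direct partner of Rbm8a, at 1.35 ± 0.08 beside Rnps1 at 0.97 ± 0.04, Thoc1 at 0.70 ± 0.04 and Alyref at 0.60 ± 0.04.

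The minor spliceosome, which removes a rare class of introns, had 5 higher (45.5%) and 3 lower (27.3%) of 11 tested genes (median 0.18). With only 11 genes, these shares are not far from the 38.3% and 37.6% over all tested genes. Changes were 0.40 ± 0.07 for Snrnp35, 0.32 ± 0.04 for Zcrb1, -0.33 ± 0.05 for Scnm1 and -0.52 ± 0.08 for Rnpc3. Of 34 other RNA-binding regulators of splicing, 22 were higher and 8 lower (median 0.26), with Syncrip at 0.93 ± 0.04, Pcbp1 at 0.93 ± 0.04, Ybx1 at 0.73 ± 0.03 and Fubp1 at 0.71 ± 0.04. Under library totals alone, the list medians were 0.74 for snRNP assembly and import (19 higher, 0 lower) and 0.30 for the U1, U2, U5 and tri-snRNP list (22 higher, 4 lower). They were 0.14 for exon junction complex and mRNA export (10 higher, 6 lower) and 0.07 for the other RNA-binding regulators (15 higher, 11 lower). The remaining 3 medians changed sign, to -0.0075 for SR-related proteins (7 higher, 5 lower), -0.0145 for the Prp19 complex list (12 higher, 9 lower) and -0.0166 for the minor spliceosome (2 higher, 3 lower).

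Counts of members that share sequence or position with other genes are less certain. Of 83 tested members with under 10% of their 50-base words in other genes and under 10% of their exon bases overlapped, 55 were higher and 17 lower, with a median of 0.32, the same median to 2 decimals as for all 117. Copies in other genes held 21.7% of the 50-base words of U2af1, 14.7% of those of U2af2 and 14.3% of those of Lsm7. On the opposite strand, other genes overlapped 25.3% of the exon bases of Srsf2, 20.7% of those of Ptbp1, 18.1% of those of Prpf31, 15.2% of those of Clk3 and 14.6% of those of Rbm19.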

How the data were processed

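The deposited files are raw read counts per gene, 1 table per library, with 5 summary values that name no gene; these held 9.47% to 9.61% of all counts in DP and 12.4% to 12.9% in DN and were left out. The submitters' processing notes name HTSeq 0.13.5, STAR 2.7.10a and Trim Galore 0.6.6, and mm10 as the genome build. Per the labels' protocols, the kit was stranded and took 2 ug of total RNA. Not given in the sources used here are the annotation release, the strand setting and any use of molecular identifiers, so duplicates may remain. Reads where genes overlap may have been left uncounted as ambiguous, a summary class that held 1.97% to 2.07% of all counts per library. Without use of strand, this would include antisense pairs.

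Exon lengths, overlaps and shared 50-base words came from GENCODE M21 for mm10, to which 55141 of 55401 identifiers matched. R 4.3.3 with edgeR 4.0.16 supplied the quasi-likelihood F test (TMM, filterByExpr with a minimum count of 10, robust, no block), with Benjamini-Hochberg adjustment over 11296 genes. The test was first tried on simulated data. Libraries within a group differed by more than sampling noise (chi-square per degree of freedom 1.96 to 3.26), so all were kept. Alternatives were other scalings, filters, thresholds and tools (DESeq2 1.42.0, limma-voom 3.58.1), immunoglobulin genes left out, a replicate block and each library left out.

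Members, lists and the 22 ratio pairs were chosen with earlier results of these data known. Values per library are given for the 3 largest called rises and falls of each class whose higher group averaged 5 CPM or more, and for a set of well-known members. Beyond that rule, Rbm47 and Snrpert and the untested members were named after their values were seen. Pathway genes named are up to 4 of each list with the smallest p, with these exceptions. Cirbp, Mfap1a and Mbnl2 were named with their values known, and Srpk2, Mbnl1 and Mbnl3 were named as relatives of named genes. Some genes that these rules cover are not reported here.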

Additional observations from a re-analysis of the deposited data

How the results depend on the processing

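Of the 53 tested members given library by library, under 17 alternatives (901 values), 865 kept direction and side of the threshold, 34 were no longer called and 2 reversed, Srsf1 (-0.032) and Clk2 (-0.020), both under library totals alone. Over all 101 called members, 12 changed sign there. Under library totals alone 32 members were lower, and SRSF had 5 higher and 1 lower, hnRNP 4 lower, SF3 2 lower, LSM 6 higher, PRPF 2 lower and CLK 0 higher. Under a minimum fold of 1.5, 33 members were higher and 6 lower, namely SRSF 1 higher, hnRNP 4 and 0 lower, SF3 4 and 0 lower, Snrp 6, LSM 4 and 0 lower, PRPF 5, PTBP 0 higher and 1 lower, CLK 0 higher and 1 lower, and RBM 7 higher and 4 lower. SF3 had 2 lower with upper-quartile factors and with a minimum count of 50. Without a filter LSM had 1 lower and PRPF 1 lower. DESeq2 gave 77 higher and 21 lower members. Leaving out single libraries gave 78 to 83 higher and 20 to 21 lower members, 1 to 2 lower SF3, 0 to 1 lower PRPF and 1 to 2 lower PTBP genes. The cause was not tested.

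With the replicate number as a block, 83 members were higher and 22 lower, PRPF had 1 lower, and no call was lost. Same-numbered libraries correlated at 0.0562, -0.00611 and -0.0182, not every library correlated best with its own number, and the numbers were not taken to pair the libraries.

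The depth limits members below about 1 CPM, and p-values rest on 3 libraries per group. Gene counts show no isoforms, and protein was not measured.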

Other observations

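Members that differed in direction also differed in size and level, as a description over genes that are not independent of each other. The 80 higher members had a median exon length of 4346 bases and the 21 lower ones 6518 bases. The median of mean levels was 266 CPM in DP and 176 CPM in DN for the higher members, and 47.5 CPM in DP and 62.0 CPM in DN for the lower ones. Cirbp, the cold-inducible relative of Rbm3, averaged 10.6 ± 0.682 CPM in DP and 16.7 ± 1.33 CPM in DN (-0.66 ± 0.10, edgeR adjusted p = 8.36e-08), a larger difference than that of Rbm3. Mfap1a, a spliceosome protein outside the rule, fell by 0.62, and the splicing regulator Mbnl2 fell by 0.68, the size of the falls of Clk4 and Rbm5. The relatives Mbnl1 (-0.080) and Mbnl3 (-0.012) did not pass the test. Cirbp, Mfap1a and Mbnl2 come from lists in which most tested genes rose. Those lists had 26 higher and 3 lower of 30 for Mfap1a, and 22 higher and 8 lower of 34 for Cirbp and Mbnl2.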
